A study of Homo sapiens with 13 samples.

Results

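The genes described here encode the RNase H enzymes, the REXO family of exonucleases and a pair of further enzymes of genome maintenance, SAMHD1 and EXO1. There are 10 of them, of 19974 protein-coding genes in the RefSeq gene table, and they were chosen by name: REXO4, REXO1, REXO2, REXO5, RNASEH1, RNASEH2A, RNASEH2B, RNASEH2C, SAMHD1 and EXO1. A peak belonged to a gene when it overlapped the annotated hg38 span or the 2 kb on either side. The peaks come from DNA-RNA immunoprecipitation sequencing (DRIP-seq) with S9.6, an antibody that binds DNA-RNA hybrids, in U2OS cells, a human osteosarcoma line. The cells were transfected with an siRNA against REXO4 (siREXO4), an siRNA against RNaseH1 (siRNaseH1) or a control siRNA (siCtrl). Each transfection had 3 S9.6 libraries and 1 input, and siCtrl cells also gave 1 IgG library. The labels call the siCtrl cells wild type and name no other alteration in any group. The sources used here do not give the siRNA sequences, the doses, the times or the extent of each knockdown. The authors called 1 peak list per transfection on merged S9.6 libraries, and these lists carry no replicate values. Signal per replicate was not analysed here, so no value has a replicate error and no test between transfections was made.

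RNase H enzymes cut the RNA strand of DNA-RNA hybrids. RNase H1 works as a single polypeptide in the nucleus and in mitochondria. RNase H2 is a complex of the catalytic subunit RNASEH2A with RNASEH2B and RNASEH2C, and it also removes single ribonucleotides from DNA. The REXO proteins carry an exonuclease domain of the kind found in yeast RNA exonucleases. R-loops are DNA-RNA hybrids that leave the other DNA strand unpaired, and in human cells many form just downstream of promoters.

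On chromosomes 1 to 22 and X, the siREXO4 list held 12687 peaks, the siRNaseH1 list 20954 and the siCtrl list 4458. A knockdown list that is longer holds more genes of any kind, so each count of genes below is given with the share of all protein-coding genes that the same list reached.

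REXO4 knockdown gave S9.6 peaks at 6 of the 10 genes, RNaseH1 knockdown at 7, and siCtrl cells at none. In the siREXO4 list these were REXO1, REXO2, RNASEH1, RNASEH2C, SAMHD1 and EXO1, with 8 peaks in all. The siRNaseH1 list held the same genes and RNASEH2B, with 9 peaks in all. REXO4, REXO5 and RNASEH2A held no peak in any list. The siREXO4 share of 60.0% (exact Clopper-Pearson 95% interval 26.2 to 87.8%) stood beside 33.7% of all protein-coding genes. The siRNaseH1 share of 70.0% (34.8 to 93.3%) stood beside 39.2%, and the siCtrl share of 0 of 10, which allows up to 30.8%, beside 12.0%. Each of these intervals includes the share of all protein-coding genes in the lists as deposited. Limiting the comparison to the 12740 protein-coding genes with spans from 3126 to 61936 bp, the range of the 10 genes, gave 32.7%, 38.2% and 9.77%. With each list cut to its 4458 strongest peaks by p-value, 5 genes held a siREXO4 peak and 3 a siRNaseH1 peak, beside 18.6% and 16.9% of protein-coding genes. Among peaks with a fold of at least 5, 6 genes held a siREXO4 peak and 5 a siRNaseH1 peak, beside 21.6% and 29.0% of protein-coding genes. At that fold the siREXO4 interval, from 26.2%, no longer includes the share of all protein-coding genes, and in the lists of equal length it starts at 18.7%, just above 18.6%. With flanks of 10 kb, 9 genes held a siRNaseH1 peak, and the interval starts at 55.5%, above the 46.7% of protein-coding genes. Several settings were tried, and no allowance was made for their number. The genes were chosen with earlier results of these data known, so these shares and intervals are a description.

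**Figure D1:**
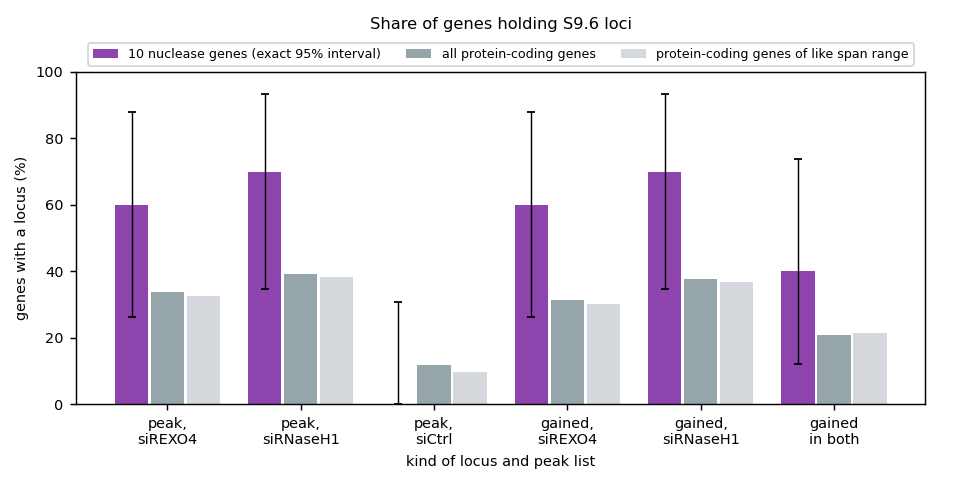
Share of genes with an S9.6 locus (y axis, %) for the 10 genes (purple, exact 95% interval), all protein-coding genes (grey) and protein-coding genes within the span range of the 10 (pale), by kind of locus and list. The siREXO4 and siRNaseH1 bars of the 10 genes stand at 60.0% and 70.0%, and their intervals reach down to 26.2% and 34.8%.

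No siCtrl peak overlapped any of these knockdown peaks, so every one of them counts as gained. The share of protein-coding genes with a gained locus was 31.3% in siREXO4 and 37.6% in siRNaseH1, or 30.1% and 36.7% among genes within the span range of the 10. Both gained sets are defined by the same siCtrl list. In 4 genes, REXO1, REXO2, RNASEH1 and RNASEH2C, a siREXO4 peak and a siRNaseH1 peak overlapped, where 20.8% of protein-coding genes, and 21.5% within the span range, held a locus gained in both. The overlapping pair at RNASEH2C lay in its flank. Without RNASEH2C, 3 genes remained with the span alone (17.7% of protein-coding genes), at a fold of at least 5 (13.1%) and at a −log10 q of at least 3 (19.3%). SAMHD1 and EXO1 held peaks in both knockdown lists at different places. RNASEH2B held a siRNaseH1 peak alone.

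The promoter sequences below show where the peaks fell at the REXO and RNase H genes. They are the RefSeq windows of 300 bases, 250 upstream and 50 downstream of the annotated start, in GRCh38.p14, which shares its chromosome positions with hg38. Each is written 5′ to 3′ on the strand of its gene. Capitals mark the bases inside a siREXO4 peak. REXO1, REXO2 and RNASEH2C are shown because a siREXO4 peak reached the window, and REXO4 and RNASEH1 because they are the genes targeted by the siRNAs and no peak reached theirs.
REXO1 (chr19:1848434-1848733, minus strand): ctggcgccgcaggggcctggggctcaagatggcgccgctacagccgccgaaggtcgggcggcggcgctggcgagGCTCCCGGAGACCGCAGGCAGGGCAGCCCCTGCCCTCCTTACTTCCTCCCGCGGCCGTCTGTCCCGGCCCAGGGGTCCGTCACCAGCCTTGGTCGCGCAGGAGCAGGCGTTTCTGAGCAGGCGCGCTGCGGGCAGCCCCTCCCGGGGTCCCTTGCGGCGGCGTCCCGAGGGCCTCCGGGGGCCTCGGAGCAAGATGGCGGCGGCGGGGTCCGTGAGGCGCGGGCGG
REXO2 (chr11:114439217-114439516, plus strand): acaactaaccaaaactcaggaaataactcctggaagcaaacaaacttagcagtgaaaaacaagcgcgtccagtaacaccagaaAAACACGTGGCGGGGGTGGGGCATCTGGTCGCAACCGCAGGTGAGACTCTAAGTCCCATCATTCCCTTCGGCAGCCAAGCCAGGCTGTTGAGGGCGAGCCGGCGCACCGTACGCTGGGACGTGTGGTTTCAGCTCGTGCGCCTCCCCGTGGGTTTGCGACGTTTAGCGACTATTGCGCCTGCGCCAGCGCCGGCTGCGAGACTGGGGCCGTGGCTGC
RNASEH2C (chr11:65720749-65721048, minus strand): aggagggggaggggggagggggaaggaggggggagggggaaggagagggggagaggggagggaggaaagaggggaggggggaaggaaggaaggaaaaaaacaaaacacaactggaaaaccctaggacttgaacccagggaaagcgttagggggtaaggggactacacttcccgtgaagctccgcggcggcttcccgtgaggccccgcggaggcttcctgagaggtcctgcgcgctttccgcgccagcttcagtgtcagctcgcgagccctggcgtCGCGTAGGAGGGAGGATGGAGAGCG
REXO4 (chr9:133418123-133418422, minus strand): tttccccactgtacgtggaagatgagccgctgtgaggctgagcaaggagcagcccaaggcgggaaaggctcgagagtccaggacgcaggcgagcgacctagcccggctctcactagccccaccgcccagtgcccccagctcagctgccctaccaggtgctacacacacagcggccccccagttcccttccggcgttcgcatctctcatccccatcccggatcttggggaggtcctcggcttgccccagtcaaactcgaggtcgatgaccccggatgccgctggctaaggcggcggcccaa
RNASEH1 (chr2:3558284-3558583, minus strand): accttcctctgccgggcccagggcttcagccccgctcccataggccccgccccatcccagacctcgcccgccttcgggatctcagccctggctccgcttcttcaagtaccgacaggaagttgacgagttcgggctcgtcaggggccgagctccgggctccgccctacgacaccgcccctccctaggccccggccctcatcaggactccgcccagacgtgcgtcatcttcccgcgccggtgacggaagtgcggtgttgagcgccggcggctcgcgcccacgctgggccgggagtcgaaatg

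In the REXO1 window 226 of the 300 bases lay in the siREXO4 peak and all 300 in the siRNaseH1 peak. In the REXO2 window 217 lay in the siREXO4 peak and 283 in the siRNaseH1 peak. The siREXO4 peak at RNASEH2C covered the last 25 bases of its window and no siRNaseH1 peak reached it. The sequences differ in composition. GC content was 77.3% at REXO1 and 59.3% at REXO2, against a median of 62.7% over 15812 protein-coding promoters of the same length, so these promoters lay on either side of the median. The RNASEH2C window is rich in G on the gene's strand: its GC skew, the excess of G over C divided by their sum, was 0.40, higher than that of 99.4% of protein-coding promoters. That skew is of the whole window, most of which lay outside the siREXO4 peak. REXO1 had a skew of 0.06 and REXO2 of 0.02, both above the median of 0.01, while REXO4 had -0.13 and RNASEH1 -0.17. No peak reached the windows that are not printed. Their skews were 0.06 at EXO1, -0.06 at RNASEH2A, -0.07 at RNASEH2B, -0.08 at REXO5 and -0.10 at SAMHD1. Runs of GGGG numbered 11 in the RNASEH2C window, 6 in REXO1, 3 in REXO2, 1 in REXO4 and 1 in RNASEH1, counted on the printed strand as separate runs of 4 or more. The same search on the opposite strand, which is CCCC as printed, found 1, 2, 1, 7 and 5 runs in the same order of genes. None of the 11 GGGG runs at RNASEH2C lay in the 25 bases inside the siREXO4 peak. In the windows not printed, GGGG runs numbered 4 at REXO5, 2 at RNASEH2A, 2 at RNASEH2B, 1 at EXO1 and 0 at SAMHD1. Runs of CCCC there numbered 2, 4, 3, 0 and 2 in that order. Of all protein-coding promoters, 80.6% hold at least 1 run of GGGG and 79.7% at least 1 of CCCC. Promoters with a siREXO4 peak over the start had a median skew of 0.02 and a median GC content of 67.7%, and those without a peak in any list 0.01 and 61.3%.

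REXO4, the target of the first siRNA and a REXO family member related to yeast ribosomal RNA processing factors, lies on chromosome 9 from 133406058 to 133418172, on the minus strand. No peak of any list overlapped it or its flanks. The nearest siREXO4 peak lay 23.0 kb away inside STKLD1 (fold enrichment 3.99), and the nearest siRNaseH1 peak 6.46 kb away, also inside STKLD1 (3.67). Fold enrichment is the authors' own summit value, relative to local background, within 1 list. The nearest siCtrl peak was 658 kb away. Hybrid signal of the calling strength was thus not seen at the REXO4 gene in any transfection. Peaks do not measure RNA or protein, so neither knockdown is checked by these data.

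REXO1, whose product binds the transcription elongation factor Elongin A, held the widest peaks of the 10 genes. The gene spans 33236 bp on chromosome 19, from 1815248 to 1848483, on the minus strand. The siREXO4 peak ran from 1847870 to 1848659, 790 bp over the transcription start, with a fold enrichment of 7.61. The siRNaseH1 peak ran from 1847800 to 1848744, 945 bp, with 6.53. The siRNaseH1 peak contained the whole siREXO4 peak, and the summits lay 203 bp (siREXO4) and 288 bp (siRNaseH1) downstream of the start, 85 bp apart. The siREXO4 peak was at percentile 84.4 of fold enrichment in its list and the siRNaseH1 peak at percentile 74.3. The nearest siCtrl peak was 36.7 kb away, in ABHD17A. Past the far end of REXO1, overlapping peaks in ATP8B3 were not counted. They lay 3619 bp (siRNaseH1) and 3280 bp (siREXO4) from the gene, with fold enrichments of 9.30 and 4.02.

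REXO2, an oligoribonuclease that breaks down very short RNAs and works largely in mitochondria, had the highest fold enrichments of the set. Its 10813 bp span lies on chromosome 11 from 114439467 to 114450279, on the plus strand. The siREXO4 peak, from 114439300 to 114440083 (784 bp), reached 8.40, and the siRNaseH1 peak, from 114439234 to 114439890 (657 bp), reached 11.1. The peaks shared 591 bp over the start. Their summits were 148 bp (siREXO4) and 163 bp (siRNaseH1) downstream of it and 15 bp apart, the closest pair of summits among the 10 genes. These peaks ranked 1476 of 12687 and 1949 of 20954 by p-value. The nearest siCtrl peak was 2338 kb away. REXO5, the fourth REXO gene, spans 43241 bp on chromosome 16 (20806425 to 20849665) and held none. Its nearest peaks were a siREXO4 peak 50.0 kb away over DCUN1D3 and LYRM1 (13.5), a siRNaseH1 peak 39.2 kb away in DCUN1D3 (5.07) and a siCtrl peak 560 kb away (4.23).

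**Figure D2:**
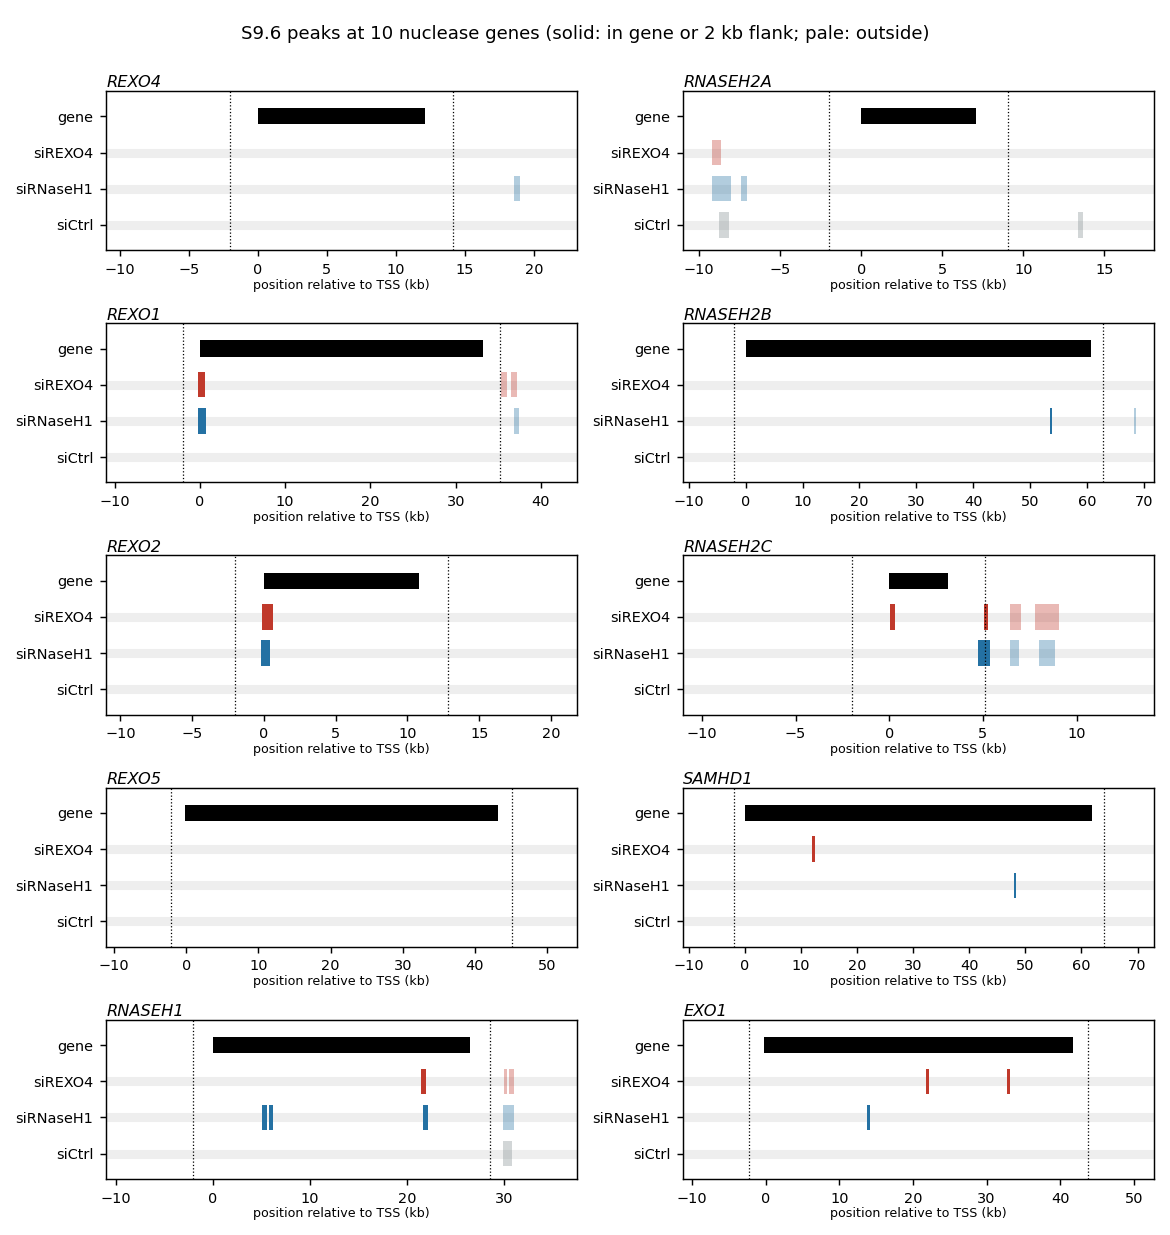
Position of S9.6 peaks at each gene, in kb from the annotated transcription start (x axis, gene strand to the right), in rows for siREXO4, siRNaseH1 and siCtrl under a black bar for the gene span. Solid blocks lie in the gene or its 2 kb flanks (dotted lines), pale blocks lie farther out and were not counted, and very narrow peaks are drawn slightly widened. REXO1 and REXO2 carry blocks at the start in both knockdown rows, and no solid block stands in a siCtrl row.

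RNASEH1, the gene of RNase H1 and the target of the second siRNA, lies on chromosome 2 from 3531813 to 3558333, on the minus strand. All of its peaks lay inside the gene and none at the start. The siREXO4 peak (3536322 to 3536899, fold enrichment 5.91) and the first siRNaseH1 peak (3536147 to 3536651, 6.00) shared 330 bp in the far part of the gene. Their summits lay 21799 bp (siREXO4) and 21975 bp (siRNaseH1) from the start, 82.2% and 82.9% of the way along the span. The siRNaseH1 list held 2 more peaks nearer the start. They ran from 3552173 to 3552588 (4.59) and from 3552757 to 3553257 (3.78), with summits 5930 bp and 5121 bp downstream of it. The siREXO4 list had no peak there. A siCtrl peak lay just outside the flank of this gene, 3360 bp past its far end, from 3527538 to 3528453, with a fold enrichment of 6.10. At that place the siREXO4 list held 2 peaks (5.05 and 5.08) and the siRNaseH1 list 1 (4.87). The locus beyond the gene was therefore found in all lists, while the loci inside the gene were found in knockdown lists alone.

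The RNase H2 subunit genes gave a peak at RNASEH2C in both knockdowns, at RNASEH2B in 1 and at RNASEH2A in none. RNASEH2C is the shortest of the 10 genes, 3126 bp on chromosome 11 from 65717673 to 65720798, on the minus strand. A siREXO4 peak of 259 bp (65720515 to 65720773) lay at its beginning, with a fold enrichment of 6.13 and its summit 155 bp downstream of the start. No siRNaseH1 peak overlapped it, and the nearest one was 4445 bp away from it. The second siREXO4 peak (65715508 to 65715761, 3.82) and the siRNaseH1 peak (65715409 to 65716069, 7.36) lay past the far end of the gene, 1912 bp and 1604 bp from it, and both lie inside KAT5, a histone acetyltransferase gene that overlaps RNASEH2C in part. With the span alone, RNASEH2C would therefore hold a siREXO4 peak and no siRNaseH1 peak. These were the peaks counted closest to the 2 kb limit. Just beyond it, a siREXO4 peak with a fold enrichment of 6.57 ended 2116 bp from REXO1. Farther from RNASEH2C, KAT5 held overlapping peaks of both knockdown lists that were not counted. Those 4644 bp (siREXO4) and 4861 bp (siRNaseH1) from RNASEH2C reached 15.9 and 10.1. Those 3332 bp (siREXO4) and 3331 bp (siRNaseH1) from it reached 5.73 and 4.75.

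RNASEH2B, 60783 bp on chromosome 13 from 50909678 to 50970460, held 1 siRNaseH1 peak (50963178 to 50963545, 5.12). Its summit was 53747 bp from the start, 88.4% of the way along the gene. A further siRNaseH1 peak (5.62) lay 7496 bp past the far end of RNASEH2B and was not counted. The nearest siREXO4 peak lay 44.5 kb from the gene and the nearest siCtrl peak 482 kb. RNASEH2A, 7057 bp on chromosome 19 from 12806584 to 12813640, held none, but it had peaks on its upstream side within 10 kb in all lists. These lay in PRDX2, a peroxiredoxin gene. The siREXO4 peak there had a fold enrichment of 4.78, the siRNaseH1 peaks 11.8 and 4.29, and the siCtrl peak 4.20. A further siCtrl peak (4.46) lay 6.29 kb downstream of RNASEH2A. Of the genes that held no knockdown peak, RNASEH2A was thus the one with siCtrl signal within 10 kb.

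SAMHD1 encodes a dNTP triphosphohydrolase with a role at stalled replication forks, and like the RNase H2 subunits it is a gene of Aicardi-Goutières syndrome. It is the longest of the 10 genes, 61936 bp on chromosome 20 from 36889773 to 36951708, on the minus strand. The siREXO4 peak (36939321 to 36939579, 6.23) lay 12259 bp from the start and the siRNaseH1 peak (36903404 to 36903669, 3.80) 48107 bp from it. The summits were 35.8 kb apart. EXO1, a 5′-to-3′ exonuclease of mismatch repair and DNA end resection, spans 41954 bp on chromosome 1 from 241847986 to 241889939. It held 2 siREXO4 peaks, from 241870038 to 241870304 (5.32) and from 241880985 to 241881340 (4.54), and 1 siRNaseH1 peak from 241861922 to 241862302 (4.80). None of these overlapped, and the closest pair of summits was 8.09 kb apart. The widths at SAMHD1 and EXO1 ran from 259 to 381 bp, against 657 to 945 bp at REXO1 and REXO2.

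**Figure D3:**
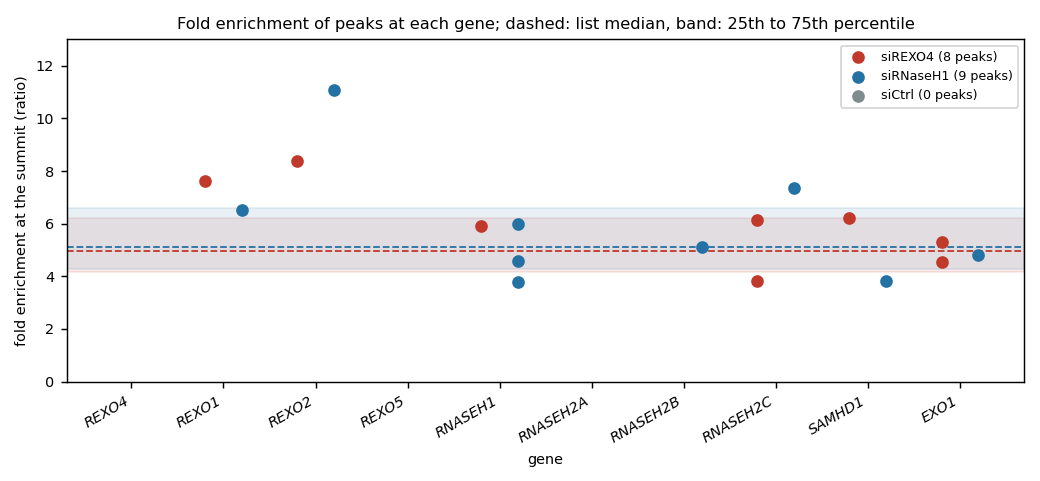
Fold enrichment at the summit (y axis, ratio over the caller's local background) of each peak counted at each gene (x axis), in siREXO4 (red) and siRNaseH1 (blue), with the median of each whole list (dashed) and its 25th to 75th percentile (band). REXO2 stands highest with 8.40 in siREXO4 and 11.1 in siRNaseH1, and the genes REXO4, REXO5 and RNASEH2A are empty.

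Within their own lists most of these peaks were ordinary in height. Of the 8 siREXO4 peaks, 6 were above the median fold enrichment of the list, 4.98, with a range of 3.82 to 8.40. Of the 9 siRNaseH1 peaks, 5 were above the list median of 5.11, with a range of 3.78 to 11.1. The REXO1 and REXO2 peaks were the only ones over a transcription start. In each knockdown list 2 of the 10 genes had such a peak, where 12.3% of 15812 protein-coding genes did in siREXO4, 12.8% in siRNaseH1 and 1.20% in siCtrl. The summits at REXO1, REXO2 and RNASEH2C, from 148 to 288 bp downstream of the start, were placed as in the lists at large. Of summits within 1 kb of a protein-coding start, 79.3% in siREXO4, 81.2% in siRNaseH1 and 80.3% in siCtrl lay downstream of it, with medians of 185, 189 and 199 bp.

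The coverage at each summit was set beside what a siCtrl call would have needed. The fragments were recovered from the authors' fold and p-value, then scaled by the lowest background of each list, which was 1.41 fragments in siREXO4, 1.36 in siRNaseH1 and 1.28 in siCtrl. The siCtrl limit is the smallest coverage that would have reached the lowest p-value of the siCtrl list at the same scaled local background. The background of the siCtrl libraries at these loci is not known, so the limit is an approximation. Intervals are exact 95% Poisson intervals and cover counting error only, since duplicate reads are not independent molecules.

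At REXO1 the siREXO4 summit had 27 fragments (17.8 to 39.3) and the siRNaseH1 summit 32 (21.9 to 45.2). These were 2.45 and 2.31 times the siCtrl limit. At REXO2 the siREXO4 summit had 32 fragments (21.9 to 45.2) and the siRNaseH1 summit 30 (20.2 to 42.8), which were 2.63 and 3.53 times the limit. The siRNaseH1 peak beyond RNASEH2C had 30 fragments and 2.35 times the limit. These are the peaks of the set that reached 2 times the limit.

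The overlapping pair inside RNASEH1 came next in number of fragments, with 19 in each knockdown (11.4 to 29.7) and 1.72 times the limit in siREXO4 and 1.79 times in siRNaseH1. The siREXO4 peak at SAMHD1 had fewer fragments, 14, but a higher ratio, 1.81 times the limit. The siREXO4 peak at the start of RNASEH2C had 17 fragments and 1.71 times the limit, and the RNASEH2B peak 17 fragments and 1.60 times. The siREXO4 peak beyond RNASEH2C had 11 fragments and 1.11 times the limit (0.55 to 1.98). The peaks at SAMHD1 and EXO1 were among the 10 with 11 to 17 fragments. The lower bound of the interval reached the limit at 3 of the 8 siREXO4 peaks and 4 of the 9 siRNaseH1 peaks. It fell below the limit at each of those 10 peaks. The medians at the 10 genes were 1.72 times the limit in siREXO4 and 1.60 times in siRNaseH1, beside 1.41 and 1.55 times over all gained loci. All of these peaks were chosen by being called in a knockdown list and absent from the siCtrl list, and a summit is the highest point of its peak. The siCtrl coverage at these places is not known, so the ratios describe the knockdown peaks and no difference from siCtrl is read from them. Against a limit set likewise for the other knockdown list, the EXO1 peaks had 1.65 and 1.39 times (siREXO4) and 1.56 times (siRNaseH1). Their lower bounds were 0.85, 0.74 and 0.87. SAMHD1 had 1.93 times in siREXO4 (from 1.05) and 1.27 in siRNaseH1 (from 0.63), and RNASEH2B 1.77 (from 1.03). Coverage of the other list at these places is not known either, so no difference between the knockdowns is read from them.

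**Figure D4:**
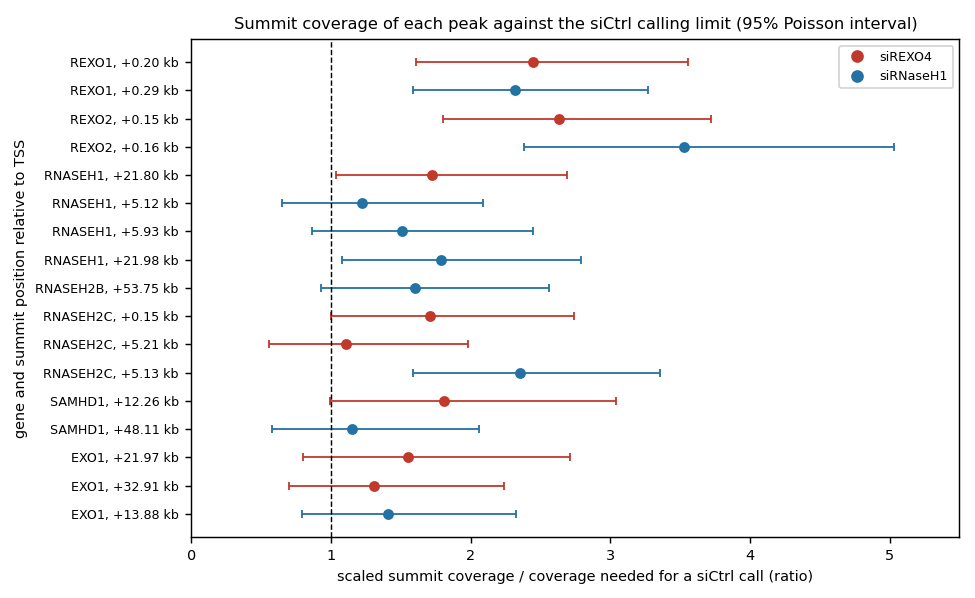
Scaled summit coverage of each peak divided by the coverage needed for a siCtrl call (x axis, ratio, with the exact 95% Poisson interval), by gene and summit position (y axis), for siREXO4 (red) and siRNaseH1 (blue). The REXO1 points stand at 2.45 in siREXO4 and 2.31 in siRNaseH1, and the REXO2 points at 2.63 and 3.53.

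Where a gene held no peak, the distance to the nearest one differed between lists. The siCtrl list had its nearest peak 3.36 kb from RNASEH1, 6.29 kb from RNASEH2A and 36.7 kb from REXO1. It was 86.8 kb from SAMHD1, 114 kb from RNASEH2C, 482 kb from RNASEH2B, 560 kb from REXO5, 658 kb from REXO4, 1067 kb from EXO1 and 2338 kb from REXO2. A shorter list has longer distances to its peaks in general. The same distances were not measured over all protein-coding genes, so they describe these genes alone. At RNASEH2A the siCtrl peak was the closest, 6.29 kb away against 8.67 kb in siREXO4 and 7.08 kb in siRNaseH1.

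**Figure D5:**
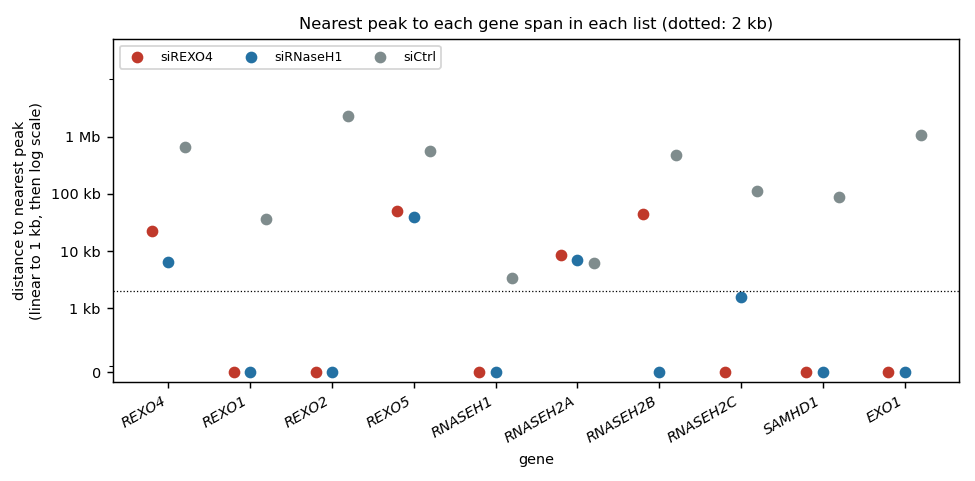
Distance from each gene span to the nearest peak (y axis, linear to 1 kb and logarithmic above) in siREXO4 (red), siRNaseH1 (blue) and siCtrl (grey), with the 2 kb limit dotted. Points at 0 are peaks inside the span, and the siCtrl points run from 3.36 kb at RNASEH1 to 2338 kb at REXO2.

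Related genes were counted from lists chosen by function. Of 20 further exonuclease genes, 9 held a siREXO4 peak (33.7% of protein-coding genes did), 17 a siRNaseH1 peak (39.2%) and 4 a siCtrl peak (12.0%). These shares are not matched for span, and the list includes long genes such as DIS3L2 (382638 bp), PARN (194560 bp) and XRN1 (141428 bp). The highest fold enrichment in siRNaseH1 was at POLG, which encodes the mitochondrial DNA polymerase with its proofreading exonuclease, with 11.4 in siREXO4 and 18.4 in siRNaseH1 at a locus shared with POLG-DT. In siREXO4 the highest were at ISG20 and ISG20L2, close relatives of REXO4. ISG20, an interferon-induced exonuclease, held 1 overlapping peak in every list, with 15.7 in siREXO4, 11.3 in siRNaseH1 and 7.19 in siCtrl. ISG20L2, a nucleolar exonuclease, had 15.0 in siREXO4 and 11.4 in siRNaseH1 at a locus shared with METTL25B, and a separate siCtrl peak of 4.22. AEN, the third relative, had overlapping peaks of 5.53 and 4.37. The RNA decay genes DIS3L2 and XRN2 also held siCtrl peaks, with highest folds of 3.77 in siREXO4, 7.64 in siRNaseH1 and 4.50 in siCtrl at DIS3L2, and of 4.15, 7.27 and 6.15 at XRN2. DIS3 and EXOSC10, catalytic subunits of the RNA exosome, held siRNaseH1 peaks (4 and 2, with highest folds of 5.29 and 4.94) and none in siREXO4. So did EXD2, PARN, DIS3L, XRN1, PNPT1 and USB1. The siRNaseH1 list is the longer of the knockdown lists, and the share of all protein-coding genes with this pattern was not counted.

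Of 19 genes of ribonucleotide excision repair, which RNase H2 starts, and of RNA primer removal, 13 held a siREXO4 peak (33.7% of protein-coding genes did), 13 a siRNaseH1 peak (39.2%) and 3 a siCtrl peak (12.0%). These shares too are not matched for span, and the list includes long genes such as RFC3 (159229 bp) and TOP1 (95666 bp). TOP1, the topoisomerase that can also cut at ribonucleotides, had 5.02 in siREXO4, 16.1 in siRNaseH1 and 6.44 in siCtrl at overlapping loci. RFC3, of the clamp loader, had 8.66 and 12.6 and no siCtrl peak. RPA2, of the single-strand binding complex, had 11.3 in siREXO4, 11.2 in siRNaseH1 and, at another place, 4.31 in siCtrl. RFC4 held a siCtrl peak of 4.50 and 6 siRNaseH1 peaks of up to 8.70, and none in siREXO4. FEN1, the flap endonuclease, and LIG1, the ligase that seals the nick, held knockdown peaks alone, with 4.27 in siREXO4 and 4.86 in siRNaseH1 at FEN1 and with 7.65 and 6.34 at LIG1. The highest peak counted at FEN1 in each knockdown list overlaps TMEM258, and the highest siREXO4 peak at LIG1 overlaps ZSWIM9.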

How the data were processed

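DRIP-seq libraries of U2OS cells were grouped by their titles. Peaks were deposited as 3 lists in the narrowPeak layout without header, 1 per transfection, and the labels' descriptions and the file names say that the 3 S9.6 libraries of a group were merged. Per the submitters' processing notes, the tools were MACS2 2.1.0.20150731, deepTools 3.5.1, SAMtools 1.17, HISAT2 2.2.1, Trim Galore 0.6.10 and Cufflinks, with the hg38 build. Options, control library and duplicate handling are not stated there. The deposited fold enrichment is a ratio to the caller's local background within 1 list. The −log10 q and −log10 p deposited beside it are for the same position, and the deposited score follows from the −log10 q. Read depth is unknown, and signal per replicate, input and IgG was not analysed here.

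Autosomal and X-linked peaks were matched to gene spans of the RefSeq table of GRCh38.p14. That table has no exon column, so exon, intron and UTR were not told apart. Starts and strands came from the RefSeq promoter table, with the most upstream start of each gene, and all 10 genes were found in both. Peak overlap meant at least 1 bp. Fragments at each summit were recovered as the whole number that satisfies both the deposited fold, (fragments + 1) / (background + 1), and the Poisson p-value; every peak with −log10 p under 300 gave one within 0.001. Code was tested on simulated data. The genes named are all 10 genes, plus the 3 related genes per list with the highest fold in a knockdown, and those with a siCtrl peak. AEN, DIS3, EXOSC10, EXD2, PARN, DIS3L, XRN1, PNPT1, USB1, FEN1 and LIG1 were named after their values were seen. The genes and lists were chosen with earlier results of these data known. The software was Python 3.11.15 with SciPy 1.17.1, pandas 2.3.3, NumPy 2.4.6 and Matplotlib 3.10.9.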

Additional observations from a re-analysis of the deposited data

How the results depend on the processing

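The counts of genes were recomputed with no flank, with 10 kb flanks, at a fold of at least 5, at a −log10 q of at least 3, with each list cut to the 4458 peaks whose p-values were lowest, with all sequence names and, for gained loci, with an overlap of at least 50% of the shorter peak or with 2 times the siCtrl calling limit. Beside each count stands the share of protein-coding genes under the same setting. Limiting the lists to equal length left 3 genes with a siRNaseH1 peak (16.9%) or gained locus (14.2%), namely REXO1, REXO2 and RNASEH2C. It left 2 with a locus gained in both (REXO1 and REXO2, 8.98%), while siREXO4 kept 5 with a peak (18.6%) or gained locus (15.6%). Requiring 2 times the siCtrl limit left 2 genes in siREXO4 (9.90%), 3 in siRNaseH1 (16.7%) and 2 gained in both (7.11%). With 10 kb flanks, 2 genes held a siCtrl peak (RNASEH1 and RNASEH2A, 16.4%). The other settings moved these counts by at most 1.5 times. REXO1 and REXO2 held a locus gained in both under every setting. The exact interval of the 10 genes lay above the share of protein-coding genes for siREXO4 peaks and gained loci at a fold of at least 5 and at equal length, and for siRNaseH1 peaks and gained loci with 10 kb flanks. Under all other settings the interval included that share. No allowance was made for the number of settings, and the genes were chosen by name, so the intervals are a description. No paired analysis was possible because the lists used here carry no replicate columns, and signal per replicate was not analysed here. Leaving out a replicate was not done for the same reason.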
